A study of Homo sapiens with 6 samples.

Results

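The stretch of human chromosome 7 band q36 that holds EN2, SHH and MNX1 was examined in HEK293T, a cell line established from human embryonic kidney. Its members are the regions obtained by merging overlapping or touching peaks of ubiquitylated and of total H2A.Z whose midpoint lies in chr7:155200000-156900000 of hg19. There were 597 such regions among 198179 in all. The members were chosen by the positions of the authors' peaks, so the presence of peaks here is a description. No region was tested again here.

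The cells carried 2 plasmids, H2A.Z-1 with Flag-BirA at its C-terminus and ubiquitin with an AviTag at its N-terminus, transfected at 3:1 and expressed beside the cells' own proteins from a pcDNA 3.1 (+) backbone, and were collected after 48 hours. Chromatin of all 6 samples was digested with micrococcal nuclease (MNase) for 30 minutes. BirA is a biotin ligase that acts on the AviTag, so streptavidin recovers chromatin with biotinylated ubiquitin next to the tagged histone (2 samples, ubiquitylated H2A.Z). Flag M2-agarose recovers all chromatin with the tagged histone (2 samples, total H2A.Z), and an H3 antibody gave a further 2 samples that enter no comparison here. Each H2A.Z pull-down has 1 peak list for both of its samples, with no count and no value per library, so depth is unknown and no spread between replicates can be given. Separate cultures are not stated for the replicates, and the authors' error measures may carry technical spread alone. Lists of peaks hold no expression, and the kidney identity of the cells could not be checked.

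The histone variant H2A.Z replaces H2A in nucleosomes at promoters and enhancers. Its C-terminal ubiquitylation is placed by the RING1 subunits of Polycomb repressive complex 1, and is known from silent chromatin such as the inactive X chromosome. SHH encodes the secreted morphogen Sonic hedgehog, which patterns the neural tube and limb bud and is switched on by enhancers scattered over a long gene-poor interval. The most distant of these, the limb enhancer ZRS, lies inside an intron of LMBR1. EN2 is a homeobox factor of the midbrain and hindbrain, and MNX1 a homeobox factor of motor neurons and pancreas. In RefSeq's GRCh38.p14 annotation the protein-coding genes stand in the order EN2, CNPY1, RBM33, SHH, RNF32, LMBR1, NOM1, MNX1. No hg19 annotation was used here. SHH is taken as 155.59 to 155.61 Mb, EN2 at 155.25 Mb and MNX1 at 156.80 Mb, and other genes are placed by general knowledge of hg19, with no distance measured.

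The 300 bases around the start sites of the 3 developmental genes and of LMBR1 are printed for reference, since regions at or near these starts are described below. They come from RefSeq (GRCh38.p14, 250 bases before to 50 after the start, 5′ to 3′ on the gene's strand), and their GRCh38.p14 positions cannot be set against the hg19 positions used elsewhere. Capitals mark each CG, the dinucleotide that DNA methylation acts on. SHH (minus strand, chr7:155812414-155812713 in GRCh38.p14), EN2 (plus strand, chr7:155457879-155458178), MNX1 (minus strand, chr7:157010614-157010913, the first of 2 starts) and LMBR1 (minus strand, chr7:156893134-156893433) read as follows.
SHH: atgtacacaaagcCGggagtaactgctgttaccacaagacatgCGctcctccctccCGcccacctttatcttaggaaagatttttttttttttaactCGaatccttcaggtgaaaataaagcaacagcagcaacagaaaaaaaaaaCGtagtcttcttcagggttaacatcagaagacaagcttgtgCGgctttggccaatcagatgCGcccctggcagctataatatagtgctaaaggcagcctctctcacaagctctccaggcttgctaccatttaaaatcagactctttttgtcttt
EN2: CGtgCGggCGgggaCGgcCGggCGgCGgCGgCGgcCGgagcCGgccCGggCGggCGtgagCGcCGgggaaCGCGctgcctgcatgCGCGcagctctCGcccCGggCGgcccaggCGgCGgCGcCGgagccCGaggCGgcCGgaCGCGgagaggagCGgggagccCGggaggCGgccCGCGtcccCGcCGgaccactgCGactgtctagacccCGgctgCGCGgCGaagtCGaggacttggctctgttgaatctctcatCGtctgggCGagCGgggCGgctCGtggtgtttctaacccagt
MNX1: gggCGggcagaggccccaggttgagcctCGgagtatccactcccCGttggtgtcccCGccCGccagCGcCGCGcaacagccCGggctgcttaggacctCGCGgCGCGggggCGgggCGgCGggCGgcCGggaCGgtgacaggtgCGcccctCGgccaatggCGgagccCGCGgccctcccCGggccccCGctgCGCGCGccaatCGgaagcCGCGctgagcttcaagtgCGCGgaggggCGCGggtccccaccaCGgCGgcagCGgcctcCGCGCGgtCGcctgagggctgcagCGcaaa
LMBR1: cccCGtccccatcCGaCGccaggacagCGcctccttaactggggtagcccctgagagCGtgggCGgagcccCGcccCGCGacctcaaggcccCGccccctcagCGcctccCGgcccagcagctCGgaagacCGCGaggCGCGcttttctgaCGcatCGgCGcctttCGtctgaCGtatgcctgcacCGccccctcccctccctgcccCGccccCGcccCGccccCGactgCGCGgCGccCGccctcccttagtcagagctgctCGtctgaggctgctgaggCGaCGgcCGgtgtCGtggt

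SHH stands apart among these by its base composition. Its promoter held 7 CG and 43.3% G or C, against a median of 14 CG and 58.7% over 35116 RefSeq promoters of the same length, 96.0% of which held at least 1 CG. EN2 held 50 CG, MNX1 44, RBM33 37 and LMBR1 36, while CNPY1, at its first listed start, held 9. More CG than in EN2 and MNX1 was thus rare, since 98.7% and 95.8% of promoters held fewer. The SHH count was not rare over all promoters, since 36.8% held fewer, and for CNPY1 41.6% did. Of the 7 genes 6 had an entry, and NOM1 was not matched.

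H2A.Z regions were crowded between EN2 and MNX1. The window held 351 regions per Mb against 67.8 on chromosome 7 and 65.9 over all listed chromosomes, and regions covered 16.0% of its bases against 2.72% over all. Only 21 of 1787 windows of 1.7 Mb laid end to end along the genome held more than 597 regions, and their median was 60. Both neighbouring stretches of the same length were also crowded, with 274 regions per Mb towards the centromere and 509 towards the chromosome end. The last region on chromosome 7 lies 2.15 Mb beyond the window, and the part played by nearness to the chromosome end was not tested.

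**Figure D1:**
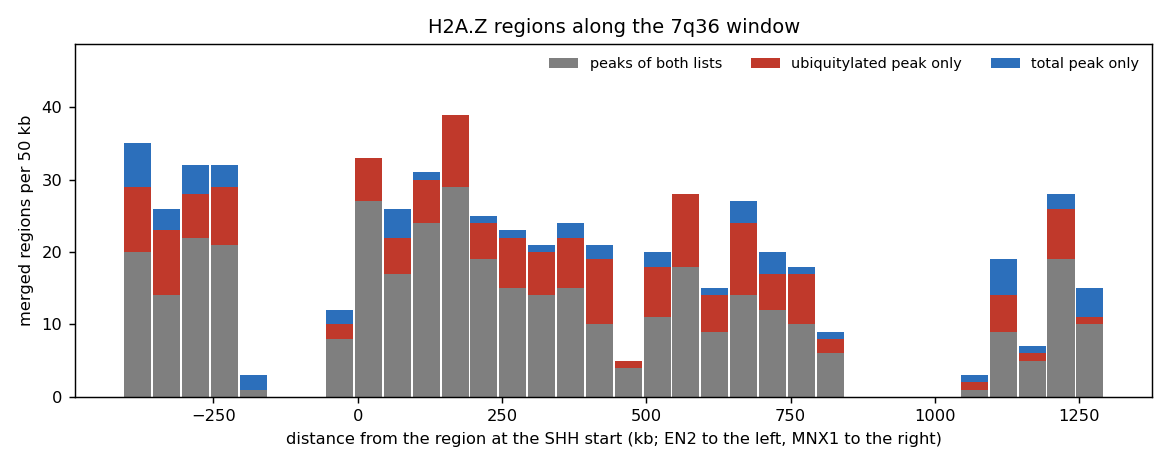
Merged H2A.Z regions per 50 kb (bars, stacked by the lists that hold a peak) against distance from the region at the SHH start in kb. Of 34 bins, 6 are empty, in the stretches left and right of the SHH and enhancer block, and the fullest bin holds 39 regions.

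Regions were not spread evenly along the window. The SHH interval held 16 regions in 20 kb (800 per Mb), the 40 kb around EN2 held 27 (675 per Mb) and the 40 kb around MNX1 held 19 (475 per Mb). From the end of SHH to the first long empty stretch lies the enhancer interval, 824 kb with 378 regions (459 per Mb). Its 15 full bins of 50 kb held 5 to 39 regions, with a median of 23. Neighbouring regions in it were a median of 825 bp apart, against 2161 bp over all regions, and its widest empty stretch was 26.5 kb.

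The longest stretches without any region lay over the bodies of RNF32 and LMBR1, of RBM33 and of NOM1. Between chr7:156434097 and 156686077, 252 kb held no peak of either list, and this is where RNF32 and LMBR1, the host of the ZRS, lie in hg19. A further 144 kb without a region, chr7:155437003-155581491, falls on RBM33, which encodes an RNA-binding protein. The third, 35.6 kb at chr7:156742270-156777830, falls on NOM1, which encodes a nucleolar protein. Absence from both lists says only that no peak passed the authors' threshold there, and none was listed over the ZRS.

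Most regions of the window had peaks in both pull-downs. Peaks of both lists were found in 384 regions (64.3%, Wilson 95% interval 60.4 to 68.1%, counting error only), against 41.9% of all regions. Ubiquitylated peaks alone made up 157 (26.3%, against 28.9% of all) and total H2A.Z peaks alone 56 (9.38%, against 29.2%). In the enhancer interval total H2A.Z peaks alone were scarcer still, 23 of 378 regions (6.08%). The flanks were alike in this, with both lists in 56.6% and 66.2% of regions and total peaks alone in 11.6% and 5.55%.

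The authors' irreproducible discovery rate (IDR), is low where both samples of a group rank a peak high. The 562 ubiquitylated peaks of the window had a median IDR of 0.000566, against 0.00137 over that list, and 28 (4.98%) were among its lowest 1%. The 461 total H2A.Z peaks had a median of 0.00271 against 0.00335, and 8 (1.74%) were among the lowest 1%. Ranks in lists of this kind describe each list alone.

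The best repeated peaks of both lists lay at the start of SHH. The ubiquitylated peak chr7:155604443-155605207 had an IDR of 5.3e-08, the third lowest of 143617 peaks, and the total H2A.Z peak chr7:155604656-155605247 an IDR of 4.4e-06, rank 92 of 143756. Merged, they form a region of 805 bp inside the SHH interval, placed at the start of this minus-strand gene by general knowledge of hg19. That region is in neither differential list, and a further 4 regions of the interval lie beyond it. Inside the gene, on the other side of the narrow chr7:155603841-155604236, chr7:155600400-155603492 was the widest region of the window, 3093 bp, rank 160 by width in the whole series.

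**Figure D2:**
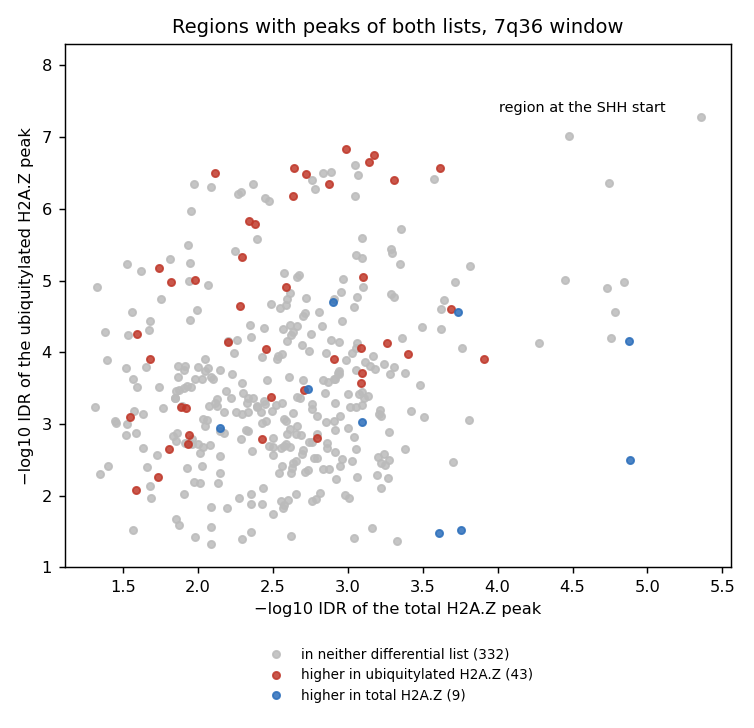
Each point is 1 of the 384 regions with peaks of both lists, by the −log10 IDR of its total H2A.Z peak (horizontal) and of its ubiquitylated peak (vertical), coloured by the authors' differential call. The region at the SHH start is at the top right, and most points are in neither differential list (332).

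Outside SHH, the lowest 3 ubiquitylated IDRs lay in the enhancer interval. The first was that of chr7:156297901-156298611 (9.68e-08, rank 44), about 693 kb from the SHH start. The second, chr7:155612773-155613798 (1.47e-07, rank 101), lies 8.4 kb from the SHH start, and the third, chr7:156296751-156297067 (1.77e-07, rank 143), is the near neighbour of the first. The next total H2A.Z peaks by IDR lay just before EN2, at chr7:155249536-155249755 (1.3e-05, rank 712), and beyond MNX1, at chr7:156888855-156889360 (1.32e-05, rank 727). Both of these were higher in the total than in the ubiquitylated H2A.Z pull-down in the authors' comparison.

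The authors compared the 2 pull-downs region by region, and their fold changes, read as log2 although the base is not stated, are of ubiquitylated over total H2A.Z with an FDR of at most 0.05. The pull-downs differ in reagent as well as in target, and the effects of these cannot be told apart. Regions called towards ubiquitylated H2A.Z are named ubiquitin-high here, and those called the other way total-high. In the window the authors' deposited table holds 82 ubiquitin-high regions of 597 (13.7%, interval 11.2 to 16.7%), against 9.39% of all regions. It holds only 16 total-high regions there (2.68%, interval 1.66 to 4.31%), against 12.1% of all. At an FDR of at most 0.01 the authors' deposited table has 37 (6.2%, against 5.26% of all regions) and 8 (1.34%, against 7.21%). At 2-fold or more it has 2 (0.335%, against 1.47%) and 1 (0.168%, against 2.39%), so that the ubiquitin-high share of the window was then below that of all regions. Of the 98 differential regions 83.7% were thus on the ubiquitylated side, against 43.7% over all. The larger departure from the background was the small number of total-high regions.

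Both flanks had this imbalance too. Towards the centromere the authors' deposited table has 47 ubiquitin-high and 6 total-high regions, and towards the chromosome end 201 and 7. The window lay between its flanks in the ubiquitin-high share, 10.1% and 23.2%, and above both in the total-high share, 1.29% and 0.809%. The window's interval for the first share, 11.2 to 16.7%, lies below that of the flank towards the chromosome end, 20.5 to 26.2%. These intervals take regions as independent, which neighbours are not.

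**Figure D3:**
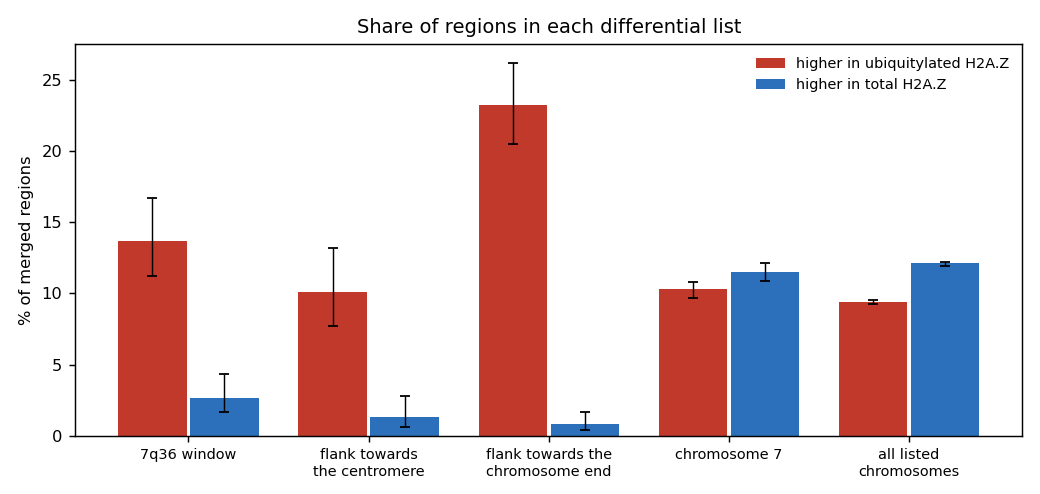
Percent of merged regions higher in ubiquitylated (red) or total H2A.Z (blue) in the authors' lists, for the window, its 2 flanks of the same length, chromosome 7 and all listed chromosomes; error bars are Wilson 95% intervals for counting error. In the window and both flanks red exceeds blue (13.7% against 2.68% in the window), and over all chromosomes blue exceeds red (12.1% against 9.39%).

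Changes were small. The 82 ubiquitin-high regions had log2 fold changes of 0.33 to 1.10 with a median of 0.54 in the authors' deposited table, where the median over the whole series is 0.68. Of these 82, 2.44% reached 2-fold there, against 15.6% over the series. The 16 total-high regions ran from -1.09 to -0.37 with a median of -0.71 in the authors' deposited table, where the series has -0.76. Median widths in the window were 572.5 bp (ubiquitin-high), 387 bp (total-high) and 312 bp (no call), an order also seen over the series (507, 362 and 295 bp).

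Regions with peaks of both lists held many of the calls. Of the 384 regions with both, 43 (11.2%, against 5.97% of such regions over all) were ubiquitin-high and 9 (2.34%, against 7.52%) total-high. Of the 157 with ubiquitylated peaks alone, 38 (24.2%) were ubiquitin-high, near the 23.8% over all such regions, and 0 were total-high, against 0.127%. Of the 56 with total H2A.Z peaks alone, 7 (12.5%) were total-high, against 30.5%. Regions with peaks of both lists therefore made up 52.4% of the ubiquitin-high regions in the window and 26.7% over all. One region, chr7:156290508-156290777 in the enhancer interval, had a total H2A.Z peak alone and yet was ubiquitin-high (0.59, FDR 0.024, authors' deposited table). It is 1 of 48 such cases among 57791 regions (0.0831%).

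**Figure D4:**
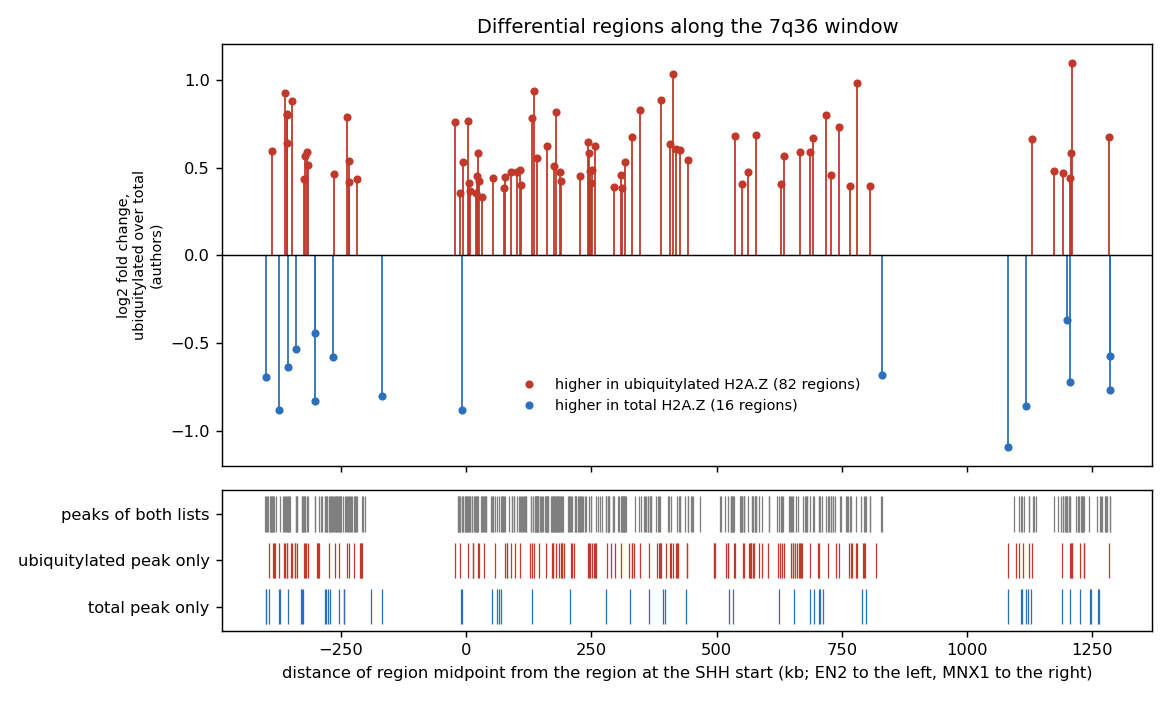
Upper panel: the authors' log2 fold change of ubiquitylated over total H2A.Z for the 98 differential regions, against distance of the region's midpoint from the region at the SHH start in kb. Lower panel: every region of the window as a tick, by the lists that hold a peak; the calls right of SHH are red until the region that borders the 252 kb empty stretch.

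Nearly all calls of the enhancer interval ran in 1 direction. Of its 378 regions 56 (14.8%, against 9.39% of all regions) were ubiquitin-high and 1 (0.265%, against 12.1%), its last, was total-high, beside 26 and 15 of the 219 regions elsewhere in the window. These 56 had log2 fold changes of 0.33 to 1.03, median 0.50, in the authors' deposited table, and 14 of the interval's 15 full bins of 50 kb held at least 1 of them. With 2 regions of the SHH interval they form a series of 58 calls over 814 kb, chr7:155598152-156412025, with none in the other direction between them. It spans 383 regions, most of which are in neither differential list. At an FDR of at most 0.01, the authors' deposited table has 23 of the interval's 378 regions as ubiquitin-high, near the 5.26% of all. It has 1 as total-high, against 7.21%. At 2-fold or more the interval held 1 and 0, against 1.47% and 2.39% of all. The lean was not particular to the enhancer interval, where 98.2% of the calls were ubiquitin-high. In the flank towards the chromosome end 96.6% of the calls were ubiquitin-high, and in the flank towards the centromere 88.7%.

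The most significant call of the interval and of the window was chr7:156016261-156016952, a region with a ubiquitylated peak alone (log2 fold change 1.03, FDR 6.9e-07 in the authors' deposited table). That peak was poorly repeated, with an IDR of 0.0388 (rank 140239 of 143617), near the limit of 0.05. The next by FDR was chr7:156181639-156183126, with peaks of both lists and a width of 1488 bp (0.69, FDR 1.3e-06, authors' deposited table). Of the 2 neighbouring low-IDR regions 693 kb from SHH, the narrower region chr7:156296751-156297067 was ubiquitin-high (0.67, FDR 0.0047, authors' deposited table) and its wider neighbour was in neither list. Regions of the interval were of ordinary width, with a median of 326 bp against 313 bp over all. Its ubiquitin-high regions had a median of 517 bp, against 507 bp over the series. Single broad ones were chr7:155790237-155792301 (2065 bp) and chr7:155609446-155611513 (2068 bp). These 2 had log2 fold changes of 0.48 (FDR 0.00028) and 0.41 (FDR 0.0045) in the authors' deposited table.

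In the SHH interval 3 of 16 regions (18.8%, against 9.39% of all) were ubiquitin-high and 1 (6.25%, against 12.1%) total-high, and the remaining 12, the start region among them, were in neither list. The strongest by FDR, chr7:155598152-155599538, had a log2 fold change of 0.53 (FDR 0.00032) in the authors' deposited table. Just before the gene's start, chr7:155607240-155607706 held a ubiquitylated peak alone (0.77, FDR 0.0011, authors' deposited table), and towards the gene's end chr7:155592814-155593993 was higher by less (0.35, FDR 0.024, authors' deposited table). Between them the narrow chr7:155597312-155597485, 174 bp with a total H2A.Z peak alone, went the other way (-0.88) at an FDR of 0.05, the limit of the authors' deposited table. Calls of both directions therefore stood within 1 kb of each other inside the gene.

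Around EN2 the directions alternated over short distances. Just before the gene, 4 successive calls over 5.68 kb were ubiquitin-high, chr7:155242470-155243206, 155245863-155246719, 155246901-155247833 and 155247926-155248148. Their log2 fold changes were 0.93 (FDR 1.7e-05), 0.64 (0.0024), 0.81 (1.2e-05) and 0.80 (0.011) in the authors' deposited table, and the first 3 held ubiquitylated peaks alone. The peak of the second was poorly repeated, with an IDR of 0.0439 (rank 141913 of 143617). The next call, the narrow low-IDR region chr7:155249536-155249755, was total-high (-0.64, FDR 0.015, authors' deposited table). At the EN2 start, chr7:155250715-155252524, 1810 bp with peaks of both lists, was in neither differential list. Towards the end of the gene chr7:155255981-155256455 was again ubiquitin-high (0.88, FDR 0.00046, authors' deposited table). In all, 5 of the 27 regions around EN2 (18.5%, against 9.39% of all) were ubiquitin-high and 3 (11.1%) total-high, the latter near the 12.1% of all regions. The median of the 5 was 0.81 on the log2 scale in the authors' deposited table, beside 0.50 for the 56 of the enhancer interval, a difference not tested.

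The 40 kb around MNX1 held calls of both directions. Of its 19 regions 4 (21.1%, against 9.39% of all) were ubiquitin-high and 2 (10.5%) total-high, the latter near the 12.1% of all regions. The region beside the gene's start, chr7:156803571-156804677 (1107 bp, peaks of both lists), was total-high by a small amount (-0.37, FDR 0.016, authors' deposited table). Further out, chr7:156810577-156811283 (0.44, FDR 0.027), chr7:156811626-156812345 (0.58, FDR 0.0026) and chr7:156813600-156813837 (1.10, FDR 0.0031) were ubiquitin-high in the authors' deposited table. The last is the largest change towards ubiquitylated H2A.Z in the window. The first of these 3 was preceded by chr7:156810235-156810529, a total H2A.Z peak alone, which was total-high (-0.72, FDR 0.013, authors' deposited table).

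Of the 16 total-high regions 15 lay outside the enhancer interval. Of the 6 regions that border the 3 longest empty stretches, 3 were total-high and 2 ubiquitin-high, beside 12.1% and 9.39% of all regions, a count made after the values were seen. The 3 total-high ones border the longest 2 stretches, and with the next longest stretch the count is 3 of 8. At the start of LMBR1, chr7:156686078-156686522 held a total H2A.Z peak alone and had the largest such change of the window (-1.09, FDR 1.6e-06, authors' deposited table). At the other edge of that stretch, by RNF32, chr7:156433430-156434096 had peaks of both lists and was total-high (-0.69, FDR 0.00019, authors' deposited table). By the start of RBM33, chr7:155436506-155437002 held a total H2A.Z peak alone (-0.80, FDR 8.3e-05, authors' deposited table). That peak was poorly repeated, with an IDR of 0.0384 (rank 138659 of 143756). The other edge of the RBM33 stretch, on the side of SHH, was a ubiquitylated peak alone and higher in that pull-down (0.76, FDR 0.015, authors' deposited table).

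A further 5 total-high regions lay apart from those edges. Before EN2 lay chr7:155205168-155205484 (-0.70, FDR 0.0056) and chr7:155231410-155231630 (-0.88, FDR 0.011), and beyond it chr7:155265479-155265817 (-0.53, FDR 0.014), in the authors' deposited table. Further on were chr7:155338576-155338784 (-0.58, FDR 0.032), on the CNPY1 side of SHH, and chr7:156722520-156722802 (-0.86, FDR 0.001), between LMBR1 and NOM1, again in the authors' deposited table. The first, the second and the last held total H2A.Z peaks alone, and the other two had peaks of both lists. At the far end of the window chr7:156888855-156889360 (-0.58, FDR 0.002) and chr7:156889660-156890568 (-0.77, FDR 5.8e-06) stood 299 bp apart in the authors' deposited table, both with peaks of both lists.

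NOM1 and CNPY1 complete the genes. Of the 2 regions that border the NOM1 stretch, chr7:156741386-156742269 had peaks of both lists and was in neither differential list. The other, chr7:156777831-156778575, also had peaks of both lists and was ubiquitin-high (0.48, FDR 0.037, authors' deposited table). Before MNX1, from the LMBR1 start on, 2 of 23 regions (8.7%) were ubiquitin-high and 2 (8.7%) total-high, near or below the 9.39% and 12.1% of all regions. Between EN2 and SHH, the part that holds CNPY1, 10 of 85 regions (11.8%) were ubiquitin-high and 4 (4.71%) total-high, beside the same 9.39% and 12.1%. Those 10 had log2 fold changes of 0.42 to 0.79, median 0.53, in the authors' deposited table. A close pair there, chr7:155302141-155302604 and chr7:155302811-155303245, was total-high (-0.45, FDR 0.03 and -0.83, FDR 4.1e-05, authors' deposited table). The low-IDR total H2A.Z region chr7:155325819-155326376, rank 1210 in its list, had peaks of both lists and was in neither differential list.

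The borders of the window are positions, with no threshold on a value. The first region inside, chr7:155201450-155203201, and the last outside before it, chr7:155199345-155199647, both had peaks of both lists and no differential call. At the other end the last region inside, chr7:156889660-156890568, was the total-high one just named, and the first outside, chr7:156912757-156912910, held a ubiquitylated peak alone and no call.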

How the data were processed

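Bowtie, SAMtools, MACS2, edgeR and hg19 are named in the submitters' processing notes. Versions or parameters were not given in the sources used here. Each H2A.Z pull-down has 1 peak list deposited by the authors, with an IDR per peak that was read as a q-value and is at most 0.05. Whether it is local or global is not stated. A further 2 lists deposited by the authors hold differential regions with an FDR and a fold change, read as log2. Their normalization is not given. Depth is unknown.

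Starts were raised by 1 base, and peaks that overlapped or touched were merged. All 42574 differential regions matched a merged region. Merging and calls were tested on simulated data. Positions of SHH, EN2 and MNX1 are approximate. The 40 kb around EN2 and MNX1 is 20 kb to each side, and the far border of the enhancer interval is the longest empty stretch, a choice made after seeing the data. The named regions are those at the 3 genes, at the lowest IDR, the widest and the differential ones, of which the rest are given by range. A list of Hedgehog pathway genes was not used, since it needs an hg19 annotation. Members and lists were chosen with earlier results of these data known. Intervals are Wilson 95% intervals. Alternatives were an IDR or FDR of at most 0.01, a change of at least 2-fold, regions with peaks of both lists, merging within 1 kb, 50% overlap of both peaks, a window shorter by 100 kb at each end or taken by any overlap, and 50 kb around the 3 genes. The analysis ran in Python 3.11.15 with pandas 2.3.3, numpy 2.4.6, matplotlib 3.10.9 and, for intervals, scipy 1.17.1.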

Additional observations from a re-analysis of the deposited data

How the results depend on the processing

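No paired analysis was possible because no list has a value for a single library, and no replicate could be left out. Of 60 alternatives, 26 left the value within 1.5 times (counts) or within its 95% interval (medians), and 34 moved it. Median fold changes were taken within each direction of call, so no alternative could turn their sign. With an FDR of at most 0.01, 37 of 597 regions were ubiquitin-high and 8 total-high (6.2% and 1.34%, against 5.26% and 7.21% of all). The enhancer interval then held 23 and 1 in its 378 regions. MNX1 held 2 and 0 in 19, EN2 4 and 0 in 27, and SHH 2 and 0 in 16. The longest series then held 25 calls, and the median log2 fold change towards ubiquitylated H2A.Z was 0.625. At 2-fold or more, 2 and 1 regions were left (0.335% and 0.168%, against 1.47% and 2.39% of all). This puts the ubiquitin-high share below that of all regions, where it was above it at the authors' FDR. The enhancer interval then held 1 and 0 in its 378 regions and MNX1 1 and 0 in 19. EN2 held 0 and 0 in 27, and SHH 0 and 0 in 16. Among regions with peaks of both lists, 43 and 9 were differential, the median change was 0.459 and the median width 408 bp. With 100 kb less at each end, 68 regions were ubiquitin-high and 8 total-high, where all regions have 9.39% and 12.1%. That shorter window held 321 regions with peaks of both lists, 131 with ubiquitylated and 41 with total peaks alone. With 50 kb around the genes, 10 regions at EN2 and 12 at SHH were ubiquitin-high, and the enhancer interval fell from 56 to 48. Wider segments take in regions of their neighbours. Their region numbers are not given here, so these counts cannot be read as shares. Merging peaks within 1 kb gave 198 regions with peaks of both lists, 41 with ubiquitylated and 14 with total peaks alone, a density of 149 per Mb and a median width of 887 bp. The ratio of density to that of all chromosomes was 5.33 as reported, 3.56 after this merging and 6.06 with an IDR of at most 0.01. That IDR limit left 565 regions, 282 with peaks of both lists, 213 with ubiquitylated and 70 with total peaks alone. Regions with both lists were then no longer the majority. The same limit gave median IDRs of 0.000446 (ubiquitylated) and 0.00197 (total), and shared ubiquitylated peaks a median of 0.000437. Several of these shifts could go only 1 way. Stricter FDR or fold limits and a shorter window can only lower counts of calls. A stricter IDR limit can only lower a median IDR, and wider merging only the number of regions. The cause of the other shifts was not tested. Depth is unknown and limits what absence from a list can say.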
